A study of Mus musculus with 10 samples.

Results

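Counts assigned to the 129 allele and to the Castaneus (Cast) allele of autosomal genes were compared within 4 libraries of female mouse neural stem cells. A gene was used in a library where it held at least 20 allelic counts and where its 10 Mb bin, judged on at least 5 such genes, had a median Cast share of 35% to 65%. The Cast share is the Cast count as a percentage of the Cast and 129 counts of a gene in 1 library. By this rule 11121 of 52632 genes were used in 1 or more libraries, from 12872 autosomal genes with 20 allelic counts in at least 1 library. These members gave 20429 gene and library pairs, with 3969 and 5426 genes in the 2 E147A/+ libraries and 5845 and 5189 in the 2 +/+ libraries. Of the members, 4375 were used in 1 library, 4496 in 2, 1938 in 3 and 312 in all 4. The bin medians chose the members, so a median share near 50% over genes is a description and not a result.

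Each culture was grown as an adherent monolayer from the cortices of 1 embryo at embryonic day 14.5, in medium holding EGF and FGF at 20 ng/mL. The groups were female Smchd1 GFP-E147A/+; XistdeltaA/+ (E147A/+, n = 2) and female Smchd1 +/+; XistdeltaA/+ (+/+, n = 2). The mutant Smchd1 allele also carried a GFP tag that the +/+ allele lacked, and every female had inherited the XistdeltaA allele from the mother. Per the labels all fathers were Castaneus and the mothers were 129/C57 F1, so that each Cast copy should be paternal, and C57 sequence had no column of its own. A Castaneus father would give a Cast copy to every autosomal segment, but 99 to 159 of 252 bins per library had a median Cast share under 15%, so the labelled cross does not account for these libraries and their pedigree was not resolved. Litters 1 and 2 gave 1 E147A/+ embryo each, and litter 3 gave both +/+ embryos. Genotype and litter therefore cannot be told apart. Each library is 1 embryo's culture, and p-values measure the spread between these 4 samples. The other 6 of the 10 libraries are male, have no allelic columns and were not used here.

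In a hybrid cell both copies of an autosomal gene share 1 nucleus, so they meet the same transcription factors. A lasting difference between them lies in the copies themselves, for example in their DNA sequence or in the chromatin state inherited from 1 parent. Counts can also differ because reads of 1 copy are easier to assign. Most genes are transcribed from both copies, while imprinted genes are transcribed from the paternal or the maternal copy by a methylation mark set in the germ line. SMCHD1 is a chromatin protein known for its part in X inactivation, in the silencing of some imprinted clusters and in the control of clustered protocadherins. With Cast labelled as the paternal copy in all 4 embryos, an effect of the strain and an effect of the parent of origin cannot be told apart for any gene here.

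The libraries held 31555904 to 44519020 total counts, of which 30.6% to 31.7% were assigned to an allele, and a member had a median of 363 to 483 allelic counts in the library where it was used. Summed markers of neural stem cells lay at 6194 to 8312 CPM (counts scaled to library size), with 17 of 17 markers at a mean of 1 CPM or more. Neuronal markers summed to 637 to 816 CPM, astrocyte markers to 183 to 252 and oligodendrocyte markers to 6.67 to 96.6, with Mag and Mog under 0.1 CPM in every library. The neuronal sum was mostly Map2, which alone lay at 635 to 788 TMM-scaled CPM, while Syt1, Gad1 and Snap25 each lay at 2.94 to 23.6. Microglial markers summed to at most 1.08 CPM. A rise or fall in a marker sum cannot separate more cells from more RNA per cell.

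The Cast copy was not found along every chromosome. Of 252 judged bins in each library, 80 and 121 were used in the E147A/+ libraries and 141 and 119 in the +/+ libraries, and only 8 bins were used in all 4. The lowest used bin medians were 42.3% to 44.5% and the highest 53.8% to 56.2%, and the nearest bins outside the window had medians of 22.45% to 31.0%. Between 99 and 159 bins per library had a median under 15%, and a bin is said here to lack Cast in such a library. These bins gave a background for each gene, its Cast share where both its bin and its 10 flanking genes lay under 15%. This background could be read for 9285 members and had a median of 0.338%, but it was 10% or more for 14.9% of them and 35% or more for 4.09%. Of pseudogenes 44.0% of 318 had a background of 65% or more, against 0.129% of 8542 protein-coding genes. Counts called Cast can thus appear in a gene whose bin and flanking genes lay under 15%. For genes named below the background is given where it was 10% or more.

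Most members were transcribed from both copies. The median Cast share over genes was 49.35% and 49.44% in the E147A/+ libraries and 48.9% and 49.5% in the +/+ libraries. The quartiles lay at 43.9% to 44.8% and at 53.7% to 53.9%. Outside 35% to 65% lay 15.8% and 17.2% of genes in E147A/+ and 17.3% and 15.4% in +/+. At the 129 end, 51, 91, 127 and 84 genes had a share of 5% or less, in the order E147A/+ replicates 1 and 2 and +/+ replicates 1 and 2. At the Cast end, 45, 71, 69 and 87 genes had a share of 95% or more. As percentages of each library's genes, the 129 end held 1.28%, 1.68%, 2.17% and 1.62% and the Cast end 1.134%, 1.31%, 1.18% and 1.68%. The peak near 50% follows from the rule, and +/+ replicate 1 had the most genes at the 129 end and +/+ replicate 2 the most at the Cast end.

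**Figure D1:**
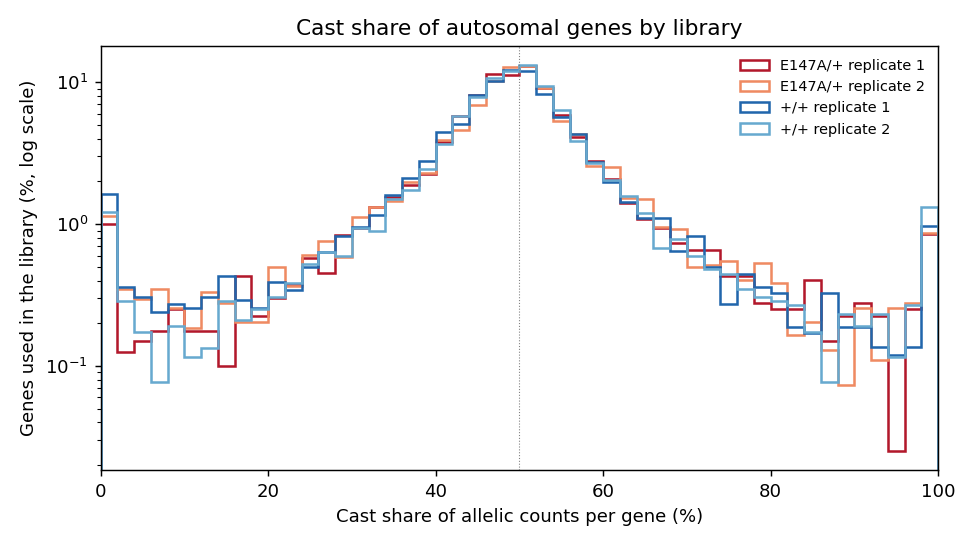
Cast share in percent (x axis) against the percentage of the library's genes (y axis, log scale) for the members of each of the 4 libraries, 1 outline per library. The libraries peak together near 50%, with medians of 48.9% to 49.5%, and each has small groups at both ends.

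Strain bias in cis was tested for 6746 genes used in 2 or more libraries, with edgeR's quasi-likelihood test of the Cast against the 129 count and each library as a block. At an adjusted p of 0.05, 1377 genes (20.4% of those tested) differed between the alleles, 623 (9.24%) with Cast higher and 754 (11.2%) with 129 higher. Which direction held more genes depended on the scaling: with each library centred on its median ratio, 707 had Cast and 681 had 129 higher. A ratio of 2 or more was reached by 575 (8.52%), 296 with Cast higher (4.39%) and 279 with 129 higher (4.14%). Without genes at a background of 10% or more, 189 had Cast and 242 had 129 higher by that ratio. Each gene contributed to the median of its own bin, and with bin medians taken without the gene 1350 genes were called. Leaving out a library, which leaves fewer genes to test, gave 314 to 465 genes with Cast and 374 to 603 with 129 higher. Requiring flanking genes at 35% to 65% gave 906 and 1219.

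Bias was common in pseudogenes and rarer in protein-coding genes. Of 205 pseudogenes 70.7% were called, with a median absolute log2 ratio of 2.86, and of 221 long noncoding RNA genes 31.2% were called. Pseudogene reads can be shared with the parent gene, so these ratios are uncertain. Of 6268 protein-coding genes 18.4% were called. Among the 4443 protein-coding genes with a background under 10%, 785 were called, 327 with Cast higher and 458 with 129 higher. Their ratios were mostly modest: 220 had an absolute log2 ratio under 0.5, 331 one of 0.5 to 1 and 234 one of 1 or more. The median standard error (SE) of the log2 ratio was 0.12 in this class. Over all biotypes, the called share was 17.6% of genes with a mean of 20 to 100 allelic counts, 18.35% of those with 100 to 1000 and 26.85% of those with 1000 or more. Calls with a ratio of 2 or more made up 17.2%, 8.02% and 3.61% of these classes. Genes with a background of 10% or more leaned to Cast, with 155 called Cast higher (18.4%) and 79 called 129 higher (9.36%) of 844. For genes with a background under 10% the counts, without centring, were 345 (7.37%) with Cast and 529 (11.3%) with 129 higher of 4679. Of 1223 genes with no library to read a background in, 123 (10.1%) had Cast and 146 (11.9%) had 129 higher.

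Of the genes used in 3 or 4 libraries, with a share of 15% to 85% in each and an allelic ratio of 2 or more, 32 had Cast higher and 49 had 129 higher. The 10 in each direction with the most allelic counts were examined one by one. Since the ratio chose them, their ratios are given as a description of these libraries.

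Among genes with the Cast copy higher, Vti1b (chromosome 12, 79156017 to 79172667, GRCm38), a SNARE protein of endosomal vesicle fusion, had a Cast share of 68.0% in E147A/+ replicate 1 and of 70.4% and 71.3% in the +/+ libraries. The 3 values lay within 4 points of each other on the share scale, and the log2 ratio was 1.21 (SE 0.06, adjusted p = 0.00075 in edgeR's quasi-likelihood test). Atp5g2 (chromosome 15, 102662864 to 102672352), which encodes the c subunit of the ATP synthase rotor, had shares of 66.2% and 67.6% in E147A/+ and of 67.3% in +/+ replicate 1. Its libraries were the closest together of these 10 genes, and its log2 ratio was 1.02 (SE 0.05, adjusted p = 0.00072). Mzt2, a component of the gamma-tubulin complex that nucleates microtubules, had shares of 73.7% in E147A/+ replicate 1 and of 69.8% and 67.02% in +/+. Its log2 ratio was 1.23 (SE 0.10).

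Lamb1 (chromosome 12, 31265234 to 31329644), the beta-1 chain of laminin in the extracellular matrix around neural stem cells, had shares of 73.2% in E147A/+ replicate 1 and of 67.3% and 67.1% in +/+. Chrm3, a muscarinic acetylcholine receptor, had shares of 73.6% in E147A/+ replicate 2 and of 69.7% and 74.75% in +/+, with a log2 ratio of 1.401 (SE 0.10). For Lamb1 the E147A/+ library was the highest, and for Chrm3 it lay between the +/+ libraries. Olfm1, a secreted olfactomedin of neural tissue, was less even, with 75.6% in E147A/+ replicate 2, 74.1% in +/+ replicate 1 and 61.1% in +/+ replicate 2. Its call was lost without E147A/+ replicate 2 (log2 ratio 1.08, adjusted p = 0.067 in edgeR). The remaining 4 genes, Tagln2, H1f2, Chn1 and Ddr2, had shares of 62.1% to 73.2% and log2 ratios of 1.02 to 1.33. H1f2, a linker histone of a gene family with near-identical copies, had a background of 19.3%. Ddr2, a collagen receptor, read 49.35% Cast over 689 counts in E147A/+ replicate 1, where its bin had a median of 0.305% and its flanking genes one of 20.4%.

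Among genes with the 129 copy higher, Rps26 (chromosome 10, 128624534 to 128626747), a protein of the small ribosomal subunit, was used in all 4 libraries. Its Cast share was 16.01% and 16.12% in E147A/+ and 17.8% and 19.8% in +/+, over 4053 to 8612 allelic counts. The 4 values lay within 4 points, and the log2 ratio was -2.25 (SE 0.07, adjusted p = 6.1e-05 in edgeR's quasi-likelihood test). Rpl7a (chromosome 2, 26910764 to 26913318), of the large ribosomal subunit, had shares of 23.8% in E147A/+ replicate 2 and of 20.0% and 24.3% in +/+, with a log2 ratio of -1.76 (SE 0.08). Sft2d2, a membrane protein, had 20.99% in E147A/+ replicate 2 and 20.4% and 25% in +/+, with a log2 ratio of -1.81 (SE 0.10). In these 3 genes the Cast copy gave 25% of the allelic counts or less in every library used.

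Kitl (chromosome 10, 100015630 to 100100416), the ligand of the KIT receptor, had shares of 33.2% in E147A/+ replicate 2 and of 31.4% and 35.3% in +/+. In +/+ replicate 1 its flanking genes had a median share of 22.1%, below the window. Impdh2, the enzyme that commits inosine monophosphate to guanine nucleotide synthesis, had shares of 34.5% and 32.9% in E147A/+ and 30.8% in +/+ replicate 1. Foxn2, a forkhead transcription factor, had shares of 32.7% in E147A/+ replicate 1 and of 32.9% and 30.8% in +/+. For Kitl, Impdh2 and Foxn2 the log2 ratios were -1.003, -1.03 and -1.08. The groups overlapped for Kitl and Foxn2, and for Impdh2 the +/+ library was the lowest.

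Slc1a2, the glutamate transporter GLT-1 of astrocytes and their precursors, varied more, with 35.3% and 19.7% in E147A/+ and 33.8% and 39.6% in +/+. Its log2 ratio of -1.03 lost its call without E147A/+ replicate 1 (adjusted p = 0.064 in edgeR). Trp53i11 had shares of 29.3% in E147A/+ replicate 2 and of 24.35% and 43.05% in +/+, and lost its call without E147A/+ replicate 2 (log2 ratio -1.03, adjusted p = 0.13). Cybrd1 and Rgs7 had shares of 21.9% to 35.4%. Within these 4 genes the spread between libraries was wide.

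**Figure D2:**
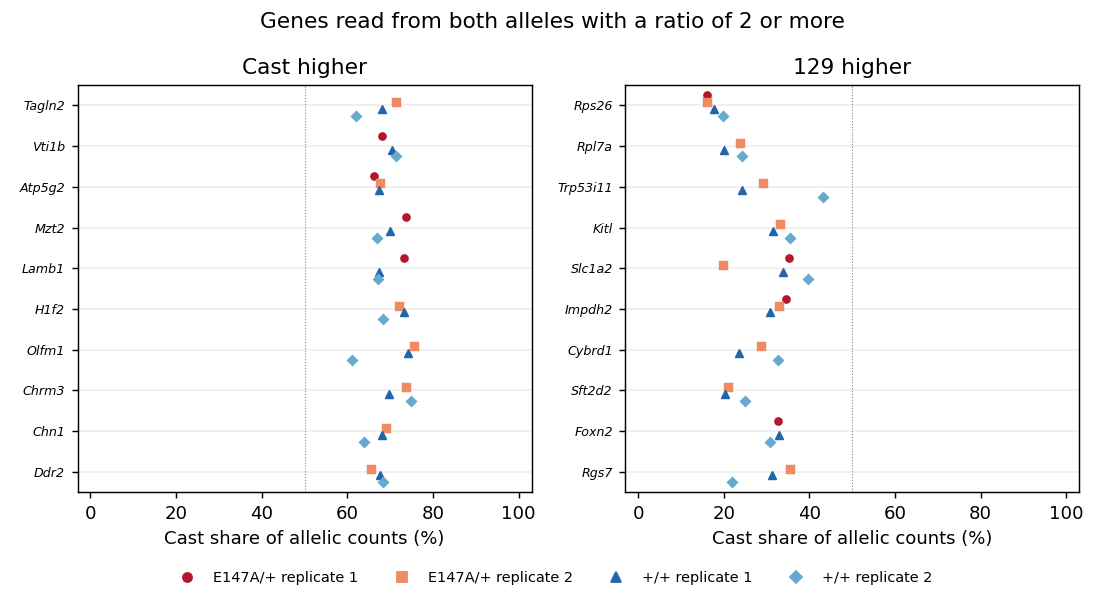
Cast share in percent (x axis) of the 20 genes described above (y axis, gene symbols), 10 with Cast and 10 with 129 higher, 1 point per library where the gene was used, coloured by genotype, with the line at 50% marking equal alleles. Every point lies on its gene's own side of 50%, as the rule that chose the genes required, and the shares of Rps26 lie between 16.01% and 19.8%.

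The 6 members with the most allelic counts, summed over the libraries used, were Vim, Eef1a1, Rpsa, Ckb, Rps3 and Pkm, with shares of 40.1% to 60.1%. Ckb (brain creatine kinase) had shares of 40.1% in E147A/+ replicate 2 and of 40.4% and 40.5% in +/+, over 25058 to 38938 allelic counts, with a log2 ratio of -0.56 (SE 0.02, adjusted p = 0.00029 in edgeR). Vim (vimentin, the intermediate filament protein of neural stem cells) had 47.8% in E147A/+ replicate 2 and 46.5% and 48.1% in +/+, with a log2 ratio of -0.15 (SE 0.02). Nes (nestin), a neural stem cell marker and not among the 6, had 45.0% in E147A/+ replicate 2 and 43.2% in +/+ replicate 2, with a log2 ratio of -0.34 (SE 0.04). The call for Vim was lost without E147A/+ replicate 2 (adjusted p = 0.088). Pkm (pyruvate kinase) had 57.9% and 60.1% in the E147A/+ libraries, with a background of 21.1%. Eef1a1 (a translation elongation factor) had 47.5% and 47.3%, with a background of 52.5%, above its share, so its value cannot be read as an allelic ratio. Rps3, a protein of the small ribosomal subunit, had 51.05% and 50.7% over 54273 and 47206 allelic counts and was not called (log2 ratio 0.05, adjusted p = 0.24).

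The share of called genes in each list is read beside the 20.4% of all genes tested. That share was 26.85% of genes with a mean of 1000 or more allelic counts, and the lists were not matched for counts. Ribosomal protein genes had 26 of 48 called (54.2%), 10 with Cast and 16 with 129 higher. At a ratio of 2 or more, 14.6% of the 48 were called, beside 8.52% of all genes tested. Without those at a background of 10% or more 22 of 39 were called at any ratio. Rps9 had shares of 34.3% in E147A/+ replicate 2 and 34.2% in +/+ replicate 2 (log2 ratio -0.94, SE 0.03), and Rps24 had 59.4% and 60.9%. Rpl3 had 69.1% in E147A/+ replicate 2 and 71.1% in +/+ replicate 1, but with a background of 19.1%. Ribosomal protein genes have many processed pseudogenes, and how reads shared with them were counted was not given in the sources used here. Mitochondrial ribosomal protein genes had 6 of 38 called (15.8%) and proteasome subunits 5 of 21 (23.8%), none with a ratio of 2 or more.

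Genes of antigen presentation and the interferon response had 8 of 20 called (40%), 1 with Cast and 7 with 129 higher. H2-K1 (chromosome 17, 33996017 to 34000347), a classical MHC class I heavy chain, had shares of 12.7% and 8.02% in the +/+ libraries, a log2 ratio of -3.12 and a background of 0.125%. H2-D1, another class I heavy chain chosen after its value was seen, had shares of 7.18% and 7.67% there. Both could be read only in +/+. Class I genes are polymorphic and have close paralogs, so these ratios are uncertain. Stat2, a transcription factor of the interferon response, had 43.8% and 40.4% in E147A/+ and 38.4% and 35.2% in +/+, with a log2 ratio of -0.61 (SE 0.09). Ifnar1, a subunit of the type I interferon receptor, had 41.3% in E147A/+ replicate 1 and 42.9% and 42.7% in +/+.

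Genes of glutathione and xenobiotic metabolism had 7 of 19 called (36.8%), 5 with Cast and 2 with 129 higher. Aldh1l1, a folate enzyme used as an astrocyte marker, had shares of 32.6% in E147A/+ replicate 1 and 33.3% in +/+ replicate 2, with a log2 ratio of -1.03. Gstm5, a glutathione transferase, had 39.6% and 39.9%. Of 16 genes of neural stem cell identity 3 were called (18.8%), all with 129 higher and none with a ratio of 2. Of 21 genes of SMC proteins, DNA methylation and Polycomb 4 were called (19.05%). Dnmt3a, a de novo DNA methyltransferase, had 44.0% in E147A/+ replicate 1 and 44.4% and 44.0% in +/+, and Uhrf1, which guides maintenance methylation, had 44.6% and 44.4% in +/+. Smchd1 itself was a member in +/+ only, with 48.8% and 47.6%. Zinc finger genes with a Zfp name had 14 of 204 called (6.86%).

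Gad1 (chromosome 2, 70553072 to 70602014), which makes the transmitter GABA and marks inhibitory neurons, had a share of 97.9% in E147A/+ replicate 2 and of 100% and 93.7% in +/+. Its log2 ratio was 4.64 (SE 0.37, adjusted p = 0.0027 in edgeR). In E147A/+ replicate 1, where its bin lacked Cast, none of 47 allelic counts were Cast. Its total level was 3.23 CPM there, and 18.9, 7.90 and 22.3 CPM in the 3 libraries with a Cast copy. The library without a Cast copy of Gad1 was thus the lowest of the 4, in a different embryo from the others. The library without Cast was likewise the lowest for 27.0% of 1584 genes used in 3 libraries with Cast lacking in the other. Those genes had a mean of 1 CPM or more. Gad1 was the only called gene of 3 tested neuronal markers.

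Monoallelic expression was counted at a share of 5% or less, or 95% or more, in every library used, for the 6746 genes used in 2 or more. By these thresholds 48 genes (0.712%) were read from the 129 copy only and 62 (0.919%) from the Cast copy only. Pseudogenes made up 26 of the 48 and 40 of the 62. Protein-coding genes numbered 7 and 16, beside 6268 of the 6746 genes used. Of the 46 Cast-only genes with a background value, 38 had a background of 35% or more, so their Cast counts also appeared where the segment carried none. Of the 38 129-only genes with a background value, 37 lay under 10%. A background can hardly be high for a gene at 5% or less where Cast is present. It therefore does not test whether Cast reads of these genes were assigned.

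Imprinted genes were among the genes with 1 active copy, and for them the direction could be set beside the known parental copy. On the list of paternally expressed genes 24 were members, and 19 of these had flanking genes at 35% to 65%. Of those 19, 14 had a share of 95% or more in every such library: Airn, Impact, Kcnq1ot1, Mest, Nap1l5, Peg10, Peg13, Peg3, Plagl1, Sgce, Slc38a4, Usp29, Zdbf2 and Zrsr1. Peg3 (chromosome 7, 6703892 to 6730431) is a zinc finger protein with a part in growth and maternal behaviour. It had 100% of 1363 allelic counts from Cast in E147A/+ replicate 2 and 99.7% of 609 in +/+ replicate 2. In the libraries where its bin lacked Cast the share was 0.849% and 0.239%. The gene thus read as Cast where its segment held Cast, and as 129 where no Cast was present.

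Kcnq1ot1 (chromosome 7, 143203458 to 143296549), the antisense RNA that silences its cluster on the paternal copy, had 100% in the 3 libraries where it was used, over 53 to 105 allelic counts. Airn (chromosome 17, 12741311 to 12860136), the antisense RNA over Igf2r, had 100% of 76 and of 56 counts in the +/+ libraries. Peg10, a retrotransposon-derived gene, had 99.6% of 11310 counts and Mest, a hydrolase-like growth gene, 98.3% of 2786 counts in E147A/+ replicate 1. The background was 11.3% for Peg10 and 12.3% for Zdbf2. Peg13 had 100% in E147A/+ replicate 2 and 98.2% in +/+ replicate 1. Kcnq1ot1 and Airn are antisense to Kcnq1 and Igf2r, and whether the counting used strand was not given in the sources used here, so their reads may not be separated. Peg13 overlaps Trappc9 on the same strand, where strand cannot separate reads.

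The other 5 paternally expressed genes did not reach 95%. Sfmbt2 had 39.6% in 1 library and 50% in another, over 48 and 24 counts. Mcts2 had 68.6% and 89.0%, Bcl2l1 67.3% and 61.2%, Inpp5f 60.1% and 65.35%, and Dlk1 20.8% and 59.1% over at most 24 counts. Mcts2 lies within H13, a maternally expressed gene, so its counts may hold reads of H13, and its background was 24.2%. Inpp5f also read 38.6% and 39.2% in the libraries whose bin had a median of 0.149% and 0.229%. Impact had 99.2% and 99.5% in its used libraries but 63.9% and 68.4% in the libraries whose bin was not used. For Ndn, Mkrn3 and Peg12 the bin lay inside the window but the flanking genes did not. In E147A/+ replicate 1 their shares were 0.952%, 0% and 0.682%, with flanking medians of 0.341% to 9.15%. In +/+ replicate 2 their shares were 96.2%, 98.3% and 95.3%. Their flanking genes lay under the window in E147A/+ replicate 1 and above it in +/+ replicate 2, at medians of 82.1% to 98.5%. Flanking genes can include other paternally expressed genes of the list. Snrpn (100%) and Snhg14 (98.8%, with a background of 10.3%) were used in +/+ replicate 2 only, with flanking medians of 97.2% and 78.4%. These 5 genes were left out of the counts above because no library had their flanking genes at 35% to 65%, and in +/+ replicate 2 all 5 lay at 95% or more.

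On the list of maternally expressed genes 25 were members, 24 of them with flanking genes at 35% to 65%, and 5 had a share of 5% or less in every such library. Grb10 (chromosome 11, 11930508 to 12038683), an adaptor that limits insulin signalling, had 0.370% of 1620 counts and 0.221% of 2719 counts in the +/+ libraries. H19 (chromosome 7, 142575529 to 142578143), a noncoding RNA of the Igf2 cluster, had 1.02% in E147A/+ replicate 1 and 0% of 80 and 0.381% of 525 counts in +/+, and a count of 0 in 80 allows a share of up to 3.75%. Rian, of the cluster on chromosome 12, had 0% of 87 counts in E147A/+ replicate 2 and 0% of 74 and 0.314% of 637 in +/+. Meg3 of the same cluster had 0% of 42 counts in E147A/+ replicate 2 and 0% of 127 in +/+ replicate 2, which allows up to 7.14% and 2.36%. Cdkn1c, a cell cycle inhibitor, had 2.47% in E147A/+ replicate 1 and 3.77% and 1.04% in +/+. Every used library of these 5 genes lay at 3.77% or less, and Grb10 could be read in +/+ only.

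A further 14 maternally expressed genes were at 35% to 65% in every such library: Ago2, Asb4, Atp10a, Casd1, Cd81, Commd1, Copg2, Dhcr7, Nap1l4, Osbpl5, Ppp1r9a, Trappc9, Tssc4 and Zim1. Several of these are known to be imprinted mainly in the placenta. Atp10a had a background of 10.7%. Ube3a, a ubiquitin ligase, was used in +/+ replicate 2 only, with 42.3% of 735 counts, and its flanking genes there had a median of 79.7%, so it is the member left out of these counts. It overlaps Snhg14 on the opposite strand. Between both states lay 5 genes. Igf2r, the receptor that clears IGF2, had 1.95% and 6.51% in the +/+ libraries. H13, a signal peptide peptidase, had 31.5% and 17.1%, Gnas, the stimulatory G protein subunit, 25.9% and 43.1%, Blcap 47.9% and 32.1%, and Cobl 30.8% in 1 library over 39 counts. The background of Gnas was 33.0%, so its values are not read further.

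Of the monoallelic genes, 5 of the 48 read from 129 and 8 of the 62 read from Cast were on an imprinted list, and the other 43 and 54, which include the pseudogenes, were on neither. On the 129 side, Tm4sf1 (chromosome 3, 57285611 to 57301988), a tetraspan membrane protein, had 2.53% in E147A/+ replicate 2 and 1.14% and 3.45% in +/+. Trp53cor1 (chromosome 17, 29057430 to 29079179), a noncoding RNA induced by p53, had 2.44% and 3.45% in +/+. Rps27rt (chromosome 9, 114982366 to 114982739), a ribosomal retrogene, had 0.797% and 0.745% in E147A/+ and 0.213% and 0.250% in +/+. All 3 lay near 0% in every library used, and reads of Rps27rt can be shared with Rps27. Atp1a4 had 0 Cast counts of 21 and of 24 in +/+, and its call was lost with limma (adjusted p = 0.062). Rn7s2 had 4.88% and 4.35%, with a background of 6.52%.

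On the Cast side, Sostdc1 (chromosome 12, 36314139 to 36318452), a secreted inhibitor of BMP and Wnt signals, had 97.96% in E147A/+ replicate 1 and 100% and 95.6% in +/+. Its total level was 2.76, 5.82 and 2.49 CPM in these libraries and 0.195 CPM in E147A/+ replicate 2, where its bin lacked Cast. The 3 libraries with a Cast copy were all higher than the 1 without. They had to reach the minimum of allelic counts to be used, and held 49, 87 and 45. E147A/+ replicate 2 held 3, below that minimum. The order of the levels is therefore partly fixed by the rule, and whether the Cast copy bears on the level was not tested. The same order was found for 27.0% of 1584 genes used in 3 libraries with Cast lacking in the other, at a mean of 1 CPM or more.

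On chromosome 16, 2 runs of neighbouring genes read almost entirely as Cast. These genes and the neighbours named with them, other than Pigx, were chosen after their values were seen. In the first run Ncbp2, Pak2, Pigx and Cep19 had shares of 97.8% to 100% in the 3 libraries where they were used. In E147A/+ replicate 2, whose bin there had a median of 1.70%, their shares were 40.2% to 52.7%. Pak2 (chromosome 16, 32016290 to 32079342), a kinase that acts on the cytoskeleton, had 97.8% in E147A/+ replicate 1, 98.1% and 97.9% in +/+ and 52.4% in E147A/+ replicate 2, at total levels of 236.0 to 253.5 CPM. In the second run Timmdc1, Poglut1, Tmem39a, Arhgap31 and B4galt4 had 97.7% to 100% in all 4 libraries, E147A/+ replicate 2 included. The neighbours differed among themselves. Near the first run, Fbxo45 had 51.7%, 50.7% and 52.9% in the used libraries and 0% in E147A/+ replicate 2. Near the second, Igsf11 had 96.0%, 91.25% and 94.6% in the used libraries and 33.7% in E147A/+ replicate 2, and Gsk3b had 53.8%, 45.1% and 43.5% in the used libraries and 40.2% in E147A/+ replicate 2. In both runs counts were thus called Cast at 40% to 100% in a library whose bins there had a median of 1.70%. The 10 flanking genes, which include other genes of the run, had medians there of 2.87% to 21.4% for the first run, 36.97% for the second, 63.95% for Igsf11 and 50.1% for Gsk3b. Whether a short Cast segment lies there in E147A/+ replicate 2 was not tested.

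The total level of a gene gave a reading that the rule did not use directly. Reads assigned to an allele are largely part of the total counts of the same library, so the total is not independent of the Cast share. For each gene the log2 total CPM was compared between libraries where its segment held Cast and libraries where it lacked Cast, which are different embryos. Genes with a background under 10% and a share of 35% to 65% had a median difference of -0.01 (n = 6739 genes). Where the Cast share was 65% to 80%, the total was higher with Cast, by a median log2 of 0.36 (n = 284), and over 80% by 0.57 (n = 70). Where the share was 20% to 35%, the total was lower with Cast, with a median of -0.25 (n = 477), and under 20% with -0.21 (n = 242). If a Cast copy replaced a second 129 copy of unchanged level, the shares would give medians of 1.98 for the highest class, 0.73, -0.02, -0.50 and -0.90 for the lowest. The order of the classes was the same, apart from the 2 lowest, and the measured differences were smaller.

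Genes with a background of 35% or more were split. With a share of 20% to 35% their median log2 difference was -0.27 (n = 11), beside -0.47 from the share. With a share over 80% the median was -0.06 (n = 128), where the share alone would give 4.06. With a share of 65% to 80% it was -0.02 (n = 40), where the share alone would give 0.79. Over 7707 genes with a background under 10% and a share of 3% to 97%, the measured and the share-derived difference had a Pearson r of 0.36 across genes, which are not independent replicates and share the 4 libraries.

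**Figure D3:**
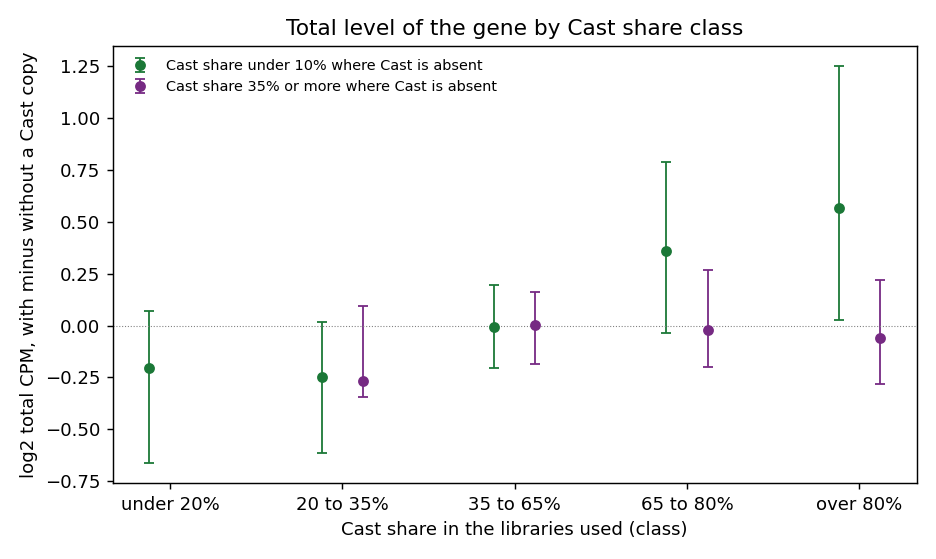
Median (points) and quartiles (bars) of the log2 total CPM with minus without a Cast copy (y axis) in classes of Cast share in percent (x axis), for genes with a background under 10% and for those at 35% or more. The first group has medians of -0.21 and -0.25 in the lowest 2 classes and rises from there to 0.57 in the highest, and the second is at -0.06 in its highest class.

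Of the 20 biallelic genes described above, 8 with Cast higher and 7 with 129 higher had a library that lacked Cast there. In 7 of the 8 the total was lower in that library than in every library with Cast, and in 3 of the 7 it was higher. Over all 1584 genes used in 3 libraries with Cast lacking in the other, and with a mean of 1 CPM or more, 27.0% were lower and 24.9% higher in that library than in every library with Cast. Vti1b had a total of 79.2, 65.4 and 81.9 CPM in the libraries with a Cast copy and 53.4 CPM in the 1 without. Mzt2 had 39.7, 46.6 and 56.1 CPM with and 20.5 CPM without, and Chrm3 had 70.0, 74.7 and 35.6 CPM with and 15.2 CPM without. Rpl7a, with 129 higher, had 148.4, 122.7 and 159.0 CPM with a Cast copy and 212.4 CPM without. With 1 library lacking Cast for each gene, no test was made, and these 4 genes were chosen after their values were seen.

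The allelic ratio was then compared between genotypes for 2250 genes used in 3 or more libraries of both genotypes. With edgeR's quasi-likelihood test, 0 of 2250 genes (0%) passed at an adjusted p of 0.05, and the lowest adjusted p was 0.22. At an unadjusted p of 0.05, 64 genes (2.84%) differed, 44 with a higher and 20 with a lower Cast share in E147A/+, and limma gave 76 unadjusted and 0 adjusted. The median absolute difference in share between genotypes was 2.65 points, 72.9% of genes lay within 5 points and 52 genes differed by over 20 points. The median SE of the log2 difference was 0.23. For 563 genes with 1000 or more allelic counts the median absolute log2 difference was 0.09 and the median SE 0.13. Differences smaller than a few SE could not be detected with 1 or 2 libraries a side.

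**Figure D4:**
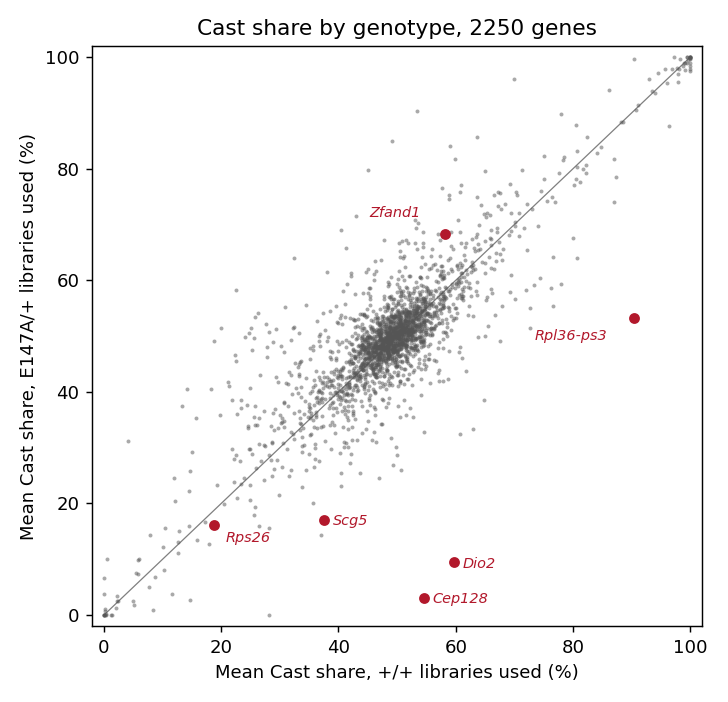
Mean Cast share in percent in +/+ (x axis) against that in E147A/+ (y axis) for the 2250 genes used in 3 or more libraries of both genotypes, 1 point per gene, with the diagonal marking equal shares and 6 genes labelled. Most points lie near 50% on both axes, 72.9% of genes differ by at most 5 points, and Cep128 and Dio2 lie far below the diagonal.

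The 5 lowest p-values belonged to Cep128, Rpl36-ps3, Dio2, Mpc1-ps and Gm4735, of which 3 are pseudogenes or predicted genes. Cep128 (chromosome 12, 90998492 to 91384409), a centriolar protein, had a Cast share of 3.11% in E147A/+ replicate 2 and of 58.3% and 50.8% in +/+, with a log2 difference of -5.15 (SE 0.37, adjusted p = 0.22 in edgeR). Its flanking genes in E147A/+ replicate 2 had a median of 30.2%, below the window. Dio2 (chromosome 12, 90724552 to 90738438), the deiodinase that activates thyroid hormone, had 9.43% in E147A/+ replicate 2 and 60.8% and 58.5% in +/+, with flanking genes at 25.7% and a background of 11.65% (log2 difference -3.67, SE 0.44, adjusted p = 0.71). For both genes the E147A/+ value is 1 library whose flanking genes lay below the window. Neither gene was tested once flanking genes had to lie at 35% to 65%. Whether a segment with Cast ends there was not tested. Cep128 passed the threshold in edgeR when each library was centred (adjusted p = 0.023) and with bins of 5 Mb (0.040). Both genes were also called without E147A/+ replicate 1, but Dio2 lost that call with only the genes used in the other 3 libraries fitted.

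Pseudogenes and predicted genes aside, the next lowest p-values were those of Tmem44, Zfand1 and Olig2. Tmem44 had 37.4% in E147A/+ replicate 1 and 49.05% and 47.1% in +/+, with a background of 9.76%. Zfand1 had 67.8% and 69.0% in E147A/+ and 55.9% and 60.6% in +/+. Olig2, a transcription factor of oligodendrocyte and neural stem cell identity, had 50.7% in E147A/+ replicate 1 and 45.2% and 44.5% in +/+. The groups did not overlap for any of the 3, as for 59.1% of the 2250 genes tested, and none passed the adjusted threshold. Mpc1-ps, Gm4735 and Rpl36-ps3 were chosen after their values were seen. Mpc1-ps had 99.6% in E147A/+ replicate 2 and 92.0% and 88.8% in +/+, with a background of 99.8%. Gm4735 had 10% of 60 counts in E147A/+ replicate 2 and 0.551% and 0.550% in +/+, with a background of 9.52%. Gm4735 passed the adjusted threshold with bins of 5 Mb. Gm4735 and Mpc1-ps were called without E147A/+ replicate 1, but not with only the genes used in the other 3 libraries fitted. Rpl36-ps3 had 53.3% in E147A/+ replicate 1 and 90.65% and 90.2% in +/+, with a background of 62.8% and an adjusted p of 0.22. It passed with bins of 5 Mb (0.040), on centring (0.040), with flanking genes at 35% to 65% (0.026) and without E147A/+ replicate 2 (0.014).

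Among the 312 genes used in all 4 libraries, fitted alone in edgeR, 122 (39.1%) differed between the alleles, 40 with Cast and 82 with 129 higher. The excess of 129 was smaller with scaling: TMM factors gave 55 and 62, RLE factors 58 and 62, and centring 53 and 64. DESeq2 gave 29 and 60. In the edgeR fit without scaling 5 genes (1.6%) differed between genotypes, and 18 at an unadjusted p of 0.05. Rpsa, a small ribosomal subunit protein, had shares of 47.8% and 48.8% in E147A/+ and 44.0% and 46.4% in +/+ (log2 difference 0.18, SE 0.05, adjusted p = 0.031). Zfand1 differed by 0.62 (SE 0.17, adjusted p = 0.031) and Rps26 by -0.28 (SE 0.08, adjusted p = 0.049). In these 3 genes, which their p-values chose, the groups did not overlap, as for 30.1% of the 312 genes. Scg5, a chaperone of secretory granules, had 30.3% and 3.88% against 23.4% and 51.8%, so its groups overlapped (-1.60, SE 0.38, adjusted p = 0.018). None of the 5 passed with DESeq2, with TMM or RLE factors, on centring each library, or with the replicate number as a block, where adjusted p-values were 0.067 to 1. With the 312 genes held fixed, Scg5 passed without E147A/+ replicate 1, and none of the 5 passed with any other library left out. With every gene used in the other 3 libraries fitted, Rpsa passed without +/+ replicate 2, and none of the 5 passed with any other library left out.

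Over whole libraries, the median Cast share of these 312 genes was 49.2% and 49.0% in E147A/+ and 48.2% and 49.3% in +/+, a difference of 0.381 points. The percentage of genes outside 35% to 65% was 10.9% and 13.1% in E147A/+ and 13.5% and 10.9% in +/+, a difference of -0.160 points. Both groups overlapped. The bin medians that chose the genes bear on both measures, and 2 against 2 libraries cannot give an exact p below 0.333, so both are given as a description.

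Bias called in 1 genotype was read in the other. Of 35 genes called in the +/+ pair among those used in all 4 libraries, 35 lay on the same side of 50% in both E147A/+ libraries, beside 66.7% of all 312 genes. Of 250 called in the +/+ pair and used in 1 or both E147A/+ libraries, 249 lay on the same side. Of 161 called in the E147A/+ pair and used in 1 or both +/+ libraries, 151 did. For this reading the share over all genes was not counted. Of 96 called in the E147A/+ pair, 89 lay on the same side in both +/+ libraries, beside 62.8% of all 312. Between 2 libraries the median absolute difference in share of protein-coding genes with 100 counts was 2.54 to 3.02 points, against 1.79 to 1.96 expected from counting alone. Pairs of the same genotype differed by 2.54 and 3.02 points and pairs of different genotypes by 2.55 to 2.79 points. Library +/+ replicate 2 stood apart in the log2 ratios, with a Pearson r across genes of 0.41 to 0.56 in the 3 pairs that include it and of 0.64 to 0.86 in the other 3, each over the genes that pair shares. Of genes over 15 points from 50% in the first library of a pair, 84.3% to 92.1% lay on the same side in pairs with +/+ replicate 2 and 98.1% to 98.8% in the others.

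No imprinted gene passed the genotype test, which held 1 paternally and 8 maternally expressed genes, each with 1 E147A/+ library. The paternally expressed gene, Kcnq1ot1, had 0 counts of 129 in every used library (SE 1646), so the test could not decide on it. Of the maternally expressed genes, H19, Cdkn1c and Rian had at most 4 Cast counts in a used library. Cd81, Tssc4, Nap1l4, Osbpl5 and Dhcr7 were read from both copies, at 44.05% to 55.15%. The test therefore does not decide whether imprinted expression differed between genotypes. Among imprinted genes used in both genotypes, H19, Cdkn1c, Rian and Meg3 were at 3.77% or less, and Peg3, Usp29, Peg13, Slc38a4 and Kcnq1ot1 at 98.2% or more, in every used library of either genotype. Others had 1 library a side, so no difference was tested, and 95% Wilson intervals cover counting error only. H13 had 31.5% in E147A/+ (29.0% to 34.2%) and 17.1% in +/+ (14.8% to 19.5%), and Mcts2 had 68.6% (59.8% to 76.3%) and 89.0% (81.4% to 93.75%). The intervals overlapped for Blcap, at 40.3% to 55.5% and 23.95% to 41.45%, and for Dlk1, at 9.24% to 40.5% and 38.7% to 76.7%. On chromosome 17, which carries Smchd1, 2 and 0 bins were used in the E147A/+ libraries and 10 and 10 in the +/+ libraries, so Airn and Igf2r could not be compared.

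Clustered protocadherins, cell surface proteins that give neurons an identity and whose variable exons are chosen at random on each copy, could be read in E147A/+ replicate 2 and +/+ replicate 1 only. With 1 library a side no difference was tested. Of 38 genes tested for strain bias 5 were called (13.2%), beside 20.4% of all genes tested. The median Cast share was 51.1% in E147A/+ replicate 2 and 47.2% in +/+ replicate 1 for the beta cluster, 50.3% and 48.0% for gamma A and B, and 45.5% and 48.6% for the C-type genes. For 9 genes of the alpha cluster it was 61.0% in E147A/+ replicate 2. Pcdhgb7 had 68.2% and 70.1%, Pcdhb5 74.4% and 82.9% (background 14.8%), and Pcdhb11 33.4% and 12.9%. Of 16 beta genes read in both libraries, 13 had higher scaled counts on both copies in E147A/+ replicate 2, with median log2 differences of 0.96 for 129 and 0.84 for Cast. Of all 2568 genes used in both libraries, 31.3% were higher and 43.1% lower on both copies. Of 19 gamma A and B genes, 3 were higher on both copies, with median log2 differences of -0.58 for 129 and -0.30 for Cast. Of the 4 C-type genes 0 were higher on both copies, with medians of -0.84 and -1.04. The protocadherin coding regions share sequence within a cluster, so counts of single genes are uncertain.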

How the data were processed

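Per the labels, stranded poly(A) libraries were made from the cultures and sequenced as 80 bp paired reads. The table the authors deposited holds raw, unnormalised counts of 10 libraries, with 2 further columns of allelic counts (129 and Cast) for each of the 4 female ones. The submitters' processing notes name Trim Galore 0.4.4, HISAT2 2.0.5, featureCounts, R 3.5.1 and edgeR 3.24.0, with no role given. The method of allele assignment and the strand setting are not given in the sources used here. Allelic counts exceeded the total for 0.253% to 0.302% of genes per library, so allelic and total counts follow somewhat different rules. Gene coordinates are GRCm38, with 47620 of 47913 autosomal genes at the same coordinates in GENCODE M21, which gave the biotypes.

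The members and gene lists were chosen with earlier results of these data known. Strain bias was fitted with edgeR 4.0.16 (R 4.3.3) on 2 allelic counts per library, with a library block and no scaling between alleles, each gene on the libraries where it was used, and quasi-dispersions squeezed over all genes. The genotype difference was the interaction of allele and genotype. SE is the SE of the log2 ratio, and p-values were adjusted by Benjamini-Hochberg over all genes of a fit at a threshold of 0.05. Total levels are TMM-scaled CPM, compared as log2(CPM + 0.5) for genes with a mean of at least 1 CPM. Intervals of a share are 95% Wilson intervals, a count of 0 allows 3 counts, and both cover counting error only. Methods were tested on simulated counts. Alternatives used limma 3.58.1, DESeq2 1.42.0, TMM or RLE factors, centring, other count minimums, bins and windows, flanking genes, a replicate block and leaving out each library. Those on the background, on centring the genes used in all 4 libraries, on reading where used, on crossed replicate numbers and on holding the 312 genes fixed while a library is left out were added after the data were seen.

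Genes were named by a rule on counts, thresholds and lists: the most deeply counted monoallelic genes, biallelic genes with a ratio of 2 or more and list members, the 5 lowest p-values for genotype outside pseudogenes and predicted genes, and every imprinted member. One of the genes that differed between genotypes is not reported here. Any other named gene is marked as chosen after its values were seen. Replicate numbers come from the titles and mark different embryos. Over 312 genes the deviations of same-numbered libraries from their genotype mean had a correlation of -0.27, so the numbers do not pair the samples. Python 3.11.15, pandas 2.3.3, scipy 1.17.1 and matplotlib 3.10.9 made the tables and figures.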

Additional observations from a re-analysis of the deposited data

Results flagged for a closer look

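Some genes had every library of 1 genotype above 50% and every library of the other below it, which was the case for 229 of the 2250 genes tested (10.2%). The difference in mean Cast share, E147A/+ minus +/+, was -51.4 points for Cep128, -50.2 for Dio2 and -6.48 for Tssc4. It was 9.51 points for Gsk3b, 6.52 for Ifnar2, 6.0 for Syt1 and 5.90 for Olig2. Gsk3b was chosen after its values were seen, and read 40.2% Cast in E147A/+ replicate 2, where its bin had a median of 1.70% and its flanking genes one of 50.1%; whether a short Cast segment lies there was not tested. Over all 2250 genes none passed the adjusted test of the difference in edgeR, with 64 at an unadjusted p of 0.05 and 0 passing with limma. Cep128 passed with bins of 5 Mb, on centring and without E147A/+ replicate 1, and Dio2 in the last of these.

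The test of the difference passed for 5 of the 312 genes used in all 4 libraries, fitted alone in edgeR. None of the 5 passed with DESeq2, with TMM or RLE factors, on centring each library or with the replicate number as a block. Mean shares differed by -20.5 points for Scg5, 10.1 for Zfand1, 3.09 for Rpsa and -2.74 for Rps26. The libraries of Scg5 overlapped between genotypes.

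Cast counts also appeared outside the regions compared, where bins and flanking genes lacked Cast. There 115 and 99 genes of the E147A/+ libraries and 64 and 90 genes of the +/+ libraries had a Cast share of 65% or more, beside library medians of 0.265%, 0.182%, 0.936% and 0.418%. These were 1.57% and 1.70% of the genes so placed in the E147A/+ libraries, and 1.33% and 1.575% in the +/+ libraries.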

How the results depend on the processing

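With 1 exception the counts of strain bias, of 623 and 754 genes, stayed within 1.5 times under other tests, scalings, minimums, windows and bins: requiring flanking genes at 35% to 65% gave 1219 genes with 129 higher. Centring turned the excess, to 707 with Cast and 681 with 129 higher. Without genes at 10% or more where Cast is absent, 189 genes had Cast and 242 had 129 higher by a ratio of 2 or more. In that setting 24 genes were read from Cast only. Leaving out a library, which leaves fewer genes to test, gave 314 to 465 genes with Cast higher, 374 to 603 with 129 higher, and 164 to 209 and 157 to 205 at a ratio of 2 or more. In all, 763 of 5006 tested genes were called without E147A/+ replicate 1, 688 of 4234 without E147A/+ replicate 2, 910 of 4455 without +/+ replicate 1 and 1068 of 4297 without +/+ replicate 2.

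For the genes used in all 4 libraries, leaving out a library was first run on every gene used in the other 3. Strain bias, called in 122 of 312 genes, was then called in 379 of 1276 without E147A/+ replicate 1, 292 of 1061 without E147A/+ replicate 2, 110 of 321 without +/+ replicate 1 and 167 of 528 without +/+ replicate 2. The genotype difference was called in 1 gene (Cep128), 1 (Rpl36-ps3), 0 and 1 (Rpsa). Holding the 312 genes fixed was chosen after these values were seen, and gave steadier counts of strain bias, each within 1.5 times of 122.

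Monoallelic genes numbered 392 (129) and 359 (Cast) with no minimum of counts, 15 and 26 when used in 3 or more libraries, 41 from Cast at 98%, and 26 to 37 and 39 to 49 with a library left out.

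For the genotype difference, bins of 5 Mb gave 1 gene higher and 4 lower in E147A/+, centring gave 2 lower, flanking genes gave 1 lower, and leaving out a library gave 0 to 2 each way. Among genes used in all 4 libraries, 5 calls became 0 higher and 0 lower with DESeq2, TMM, RLE and centring, with 4, 13, 10 and 12 genes at an unadjusted p of 0.05. The replicate block gave 0 and 0 (12 unadjusted), and with the E147A/+ numbers crossed 0 and 0 (14 unadjusted). Leaving out a library with the 312 genes held fixed gave 0 higher and 0 to 2 lower. The difference in median share went from 0.381 to between -0.0540 and 1.02 points with a library left out. That in genes outside 35% to 65% changed sign with a minimum of 10 (0.297 points), no minimum (0.339) and bins of 5 Mb (0.668), and ran from -2.84 to 1.402 with a library left out. The cause of these changes was not tested.

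Depth, 1 or 2 libraries a side, litters that follow genotype and the lack of a C57 column limit all of these comparisons.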
